A study of Mus musculus with 6 samples.

Results

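Epiblast stem cell-like (EpiSC-like) cells taken on day 3 of a neural differentiation culture were compared with the embryonic stem cells (ESC) from which such cultures start. Members were chosen by their sample titles. They are 4 of the 6 arrays of the series, 2 of EpiSC-like cells and 2 of ESC. All cells came from OLV2-1, a mouse ESC line in which the fluorescent protein Venus was knocked into the locus of Oct4 (Pou5f1), and every group was sorted for Venus. The ESC were undifferentiated cells, labelled Oct4-Venus+, and the sorting protocol adds that they were positive for CD31, the surface protein encoded by Pecam1. The EpiSC-like cells came from aggregates grown for 3 days in SFEBq, a serum-free culture of quickly reaggregated cells that is used to induce neural tissue, and were sorted as Venus-positive and CD31-negative. The remaining 2 arrays, labelled Day7, hold Venus-positive cells of 7-day aggregates. They entered only the estimate of the spread and the last comparison. ESC and day 3 aggregates were both dissociated with trypsin, kept for 1 hour in SFEBq medium and stained for CD31, whereas day 7 aggregates were dissociated with EDTA. The 2 groups compared therefore differed in culture and in the CD31 gate at once, and these cannot be told apart. The sources used here do not give the medium of the ESC culture. All groups derive from 1 line. Nothing in the labels names separate cultures behind the arrays of a group, so the spread on which p-values rest may be technical.

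ESC resemble the inner cell mass of the blastocyst. They are held in a naive state by leukaemia inhibitory factor (LIF), which acts through its receptor, JAK kinases and the transcription factor STAT3, and by a set of transcription factors that includes Klf4, Esrrb and Tfcp2l1. EpiSC resemble the epiblast after implantation, an epithelium that depends on FGF and Nodal signals, has let go of the naive factors while keeping Oct4, and is ready to enter the germ layers. In SFEBq aggregates such cells go on to neural tissue, and neural tissue takes its head-to-tail position from Wnt, FGF and retinoic acid signals, to which the Hox genes respond.

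RNA was measured on Affymetrix 3' expression arrays as 1 linear signal per probe set. The deposited arrays share one trimmed mean, and their median signals lay between 63.99 and 76.3. The arrays also differed by replicate number, although the labels name no such batch. The highest signal was 30793 to 36841 on the 3 replicate 1 arrays and 63296 to 66643 on the 3 replicate 2 arrays, and the poly-A controls, RNAs added before labelling, read 73.3 and 76.9 on ESC and EpiSC-like replicate 2 against 591 to 826 on the other 4 arrays, day 7 replicate 2 among them. Differences between the 2 groups are therefore also given within each replicate number, called an array set here.

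Of 18193 genes tested, 345 (1.90%) were called different between EpiSC-like cells and ESC, 239 higher (1.31%) and 106 lower (0.583%) in EpiSC-like cells. A call is a limma adjusted p (Benjamini-Hochberg) under 0.05, and the probe set that was brightest on average stands for each gene. Differences are log2 values of EpiSC-like minus ESC on the scale log2(signal + 16), given with the standard error of the fit, a scale on which dim genes change by less than their ratio. The median rise was 2.12 and the median fall -1.96, and over all genes the median difference was 0.03. Genes that rose were mostly dim in ESC, where their median signal was 65.1 against 411 in EpiSC-like cells, and 29 of them read under 16 on both ESC arrays. Genes that fell had a median signal of 716 in ESC and 143 in EpiSC-like cells. In all 345 the signals of the 2 groups did not overlap, so both array sets necessarily shared the sign of the difference. Over all genes the sign was shared by 12217 of 18193. Non-overlap, which 2 arrays against 2 often reach without a difference, was not counted over all genes. The calls were made on these same arrays, so neither count is further evidence for them. For 60 of the 345 several probe sets were brighter than the median gene, and in all 60 those probe sets moved in one direction. No such share was counted over all genes. Dimmer probe sets could point the other way, with a lowest value of -0.83 for Efnb2 (called at 3.37) and -1.58 for Nkx1-2 (called at 1.91). With the mean of all probe sets of a gene, 227 of the 345 stayed called. The calls rested on few arrays, because with the replicate number as a block, with a pseudocount of 1, or without ESC replicate 2, EpiSC-like replicate 1 or EpiSC-like replicate 2, limma called 0 genes, and without ESC replicate 1 it called 63. Without either day 7 array, or with the 4 arrays fitted alone, it called 41. At an unadjusted p under 0.05 the main fit passed 2904 genes and the fit with the block 3369. The latter held all 345, but these were picked on the same arrays with the same differences, so this does not bear out the calls. Centring each array on its median moved the split to 184 higher and 148 lower. Counts in the gene lists below are to be read beside the shares over all genes. These are 1.31% higher, 0.583% lower, and 2904 of 18193 at an unadjusted p under 0.05. No list was tested against these shares. In a sort, fewer cells of a type and less RNA per cell cannot be told apart, which holds for every difference below.

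**Figure D1:**
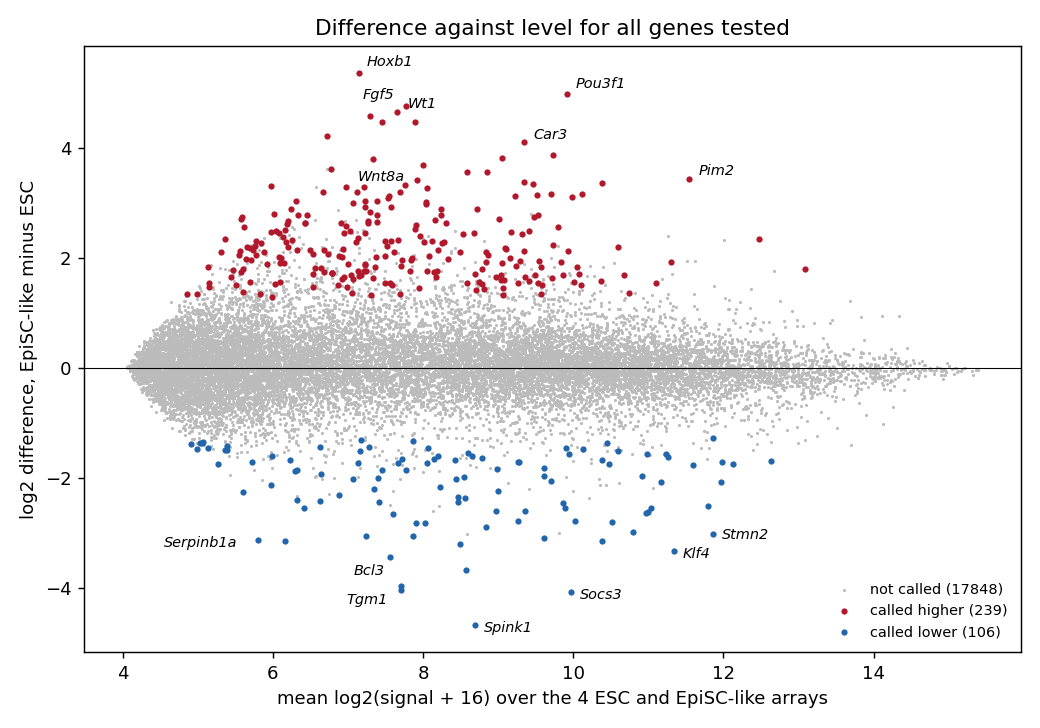
Log2 difference between EpiSC-like cells and ESC (vertical axis) against the mean log2(signal + 16) over the 4 arrays (horizontal axis) for 18193 genes. Red points are the 239 genes called higher in EpiSC-like cells and blue points the 106 called lower, and Pou3f1, Pim2, Klf4 and Socs3 stand out among genes with a high level.

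The 4 genes taken as markers of the EpiSC-like label moved in the direction it implies. Fgf5, a growth factor of the epiblast, read 26.2 and 25.9 in ESC and 1009 and 1243 in EpiSC-like cells, a rise of 4.76 ± 0.33, adjusted p = 0.0140. Pou3f1, a POU factor of epiblast and early neural tissue, read 263 and 89.7 in ESC and 5624 and 5212 in EpiSC-like cells and rose by 4.98 ± 0.55, adjusted p = 0.0200. For both genes the arrays of the 2 groups lay far apart. Socs3, the feedback inhibitor that STAT3 induces, read 4369.9 and 3849.7 in ESC and 188 and 276 in EpiSC-like cells, with a difference of -4.08 ± 0.35, adjusted p = 0.0164. Klf4, a naive transcription factor, read 8870.00 and 7622 in ESC and 1413 and 450.02 in EpiSC-like cells, with a difference of -3.34 ± 0.55, adjusted p = 0.0448. The lower of the 2 EpiSC-like values of Klf4 came from replicate 2. The reporter gene and the gate gene were not called. Pou5f1 read 7927 and 14055 in ESC and 6244 and 9923 in EpiSC-like cells (log2 difference -0.42 ± 0.39, adjusted p = 0.680), and its groups overlapped. Pecam1, the gene of the CD31 antigen, read 728 and 343 in ESC and 401 and 177 in EpiSC-like cells (-0.87 ± 0.51, adjusted p = 0.480), and its groups overlapped although it was lower within each array set, by -0.84 and -0.90.

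**Figure D2:**
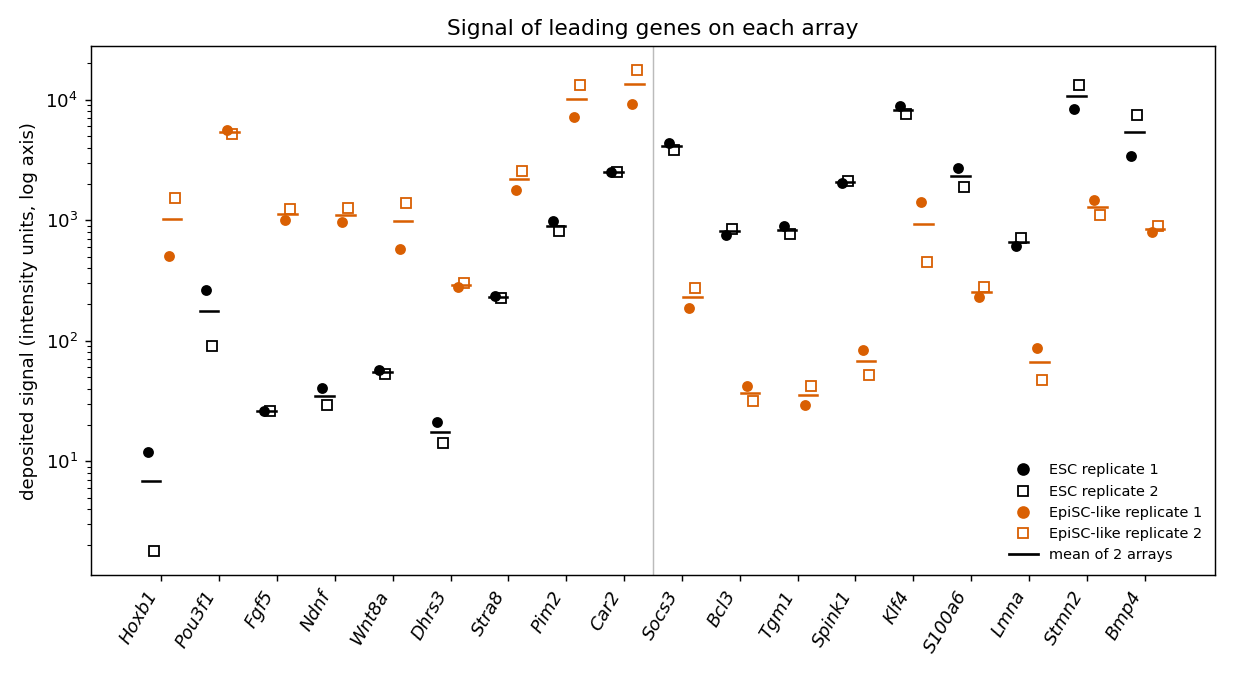
Deposited signal on a log axis for 9 genes that rose (left of the grey line) and 9 that fell (right), with 1 point per array and a bar at the mean of 2 arrays. For each gene the EpiSC-like arrays lie wholly above or wholly below the ESC arrays, and the gap is widest for Hoxb1.

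Among 25 measured genes of LIF receptor and STAT3 signalling, 3 fell and 1 rose, and the median difference was 0.05 (0.03 over all genes). Socs3 (above) was joined by Bcl3, a nuclear partner of NF-kappa-B and a known STAT3 target in ESC, which read 762 and 854 in ESC and 41.98 and 31.9 in EpiSC-like cells and fell by 3.96 ± 0.23, adjusted p = 0.0114. The kinase gene Pim3 read 6597 and 10216 in ESC and 1845 and 2029.5 in EpiSC-like cells, with a difference of -2.08 ± 0.28, adjusted p = 0.0285. Its relative Pim2 moved the other way, with signals of 985 and 811 in ESC and 7251 and 13236 in EpiSC-like cells, a rise of 3.43 ± 0.50, adjusted p = 0.0350, and the lowest EpiSC-like value was several times the highest ESC value. Pim1 (-0.68) and the kinase gene Jak1 (0.39) were not called. Stat3 itself read 1352 and 969 in ESC and 341 and 189.9 in EpiSC-like cells (-2.10 ± 0.40, adjusted p = 0.0596), and Lifr, the LIF receptor, read 2339 and 1418 in ESC and 919.7 and 327 in EpiSC-like cells (-1.70 ± 0.50, adjusted p = 0.166). Neither was called. Their groups did not overlap, which 2 arrays against 2 often reach without a difference, and which forces one sign in both array sets. In the NF-kappa-B and TNF list 2 of 23 genes fell (8.70%, against 0.583% over all genes), Bcl3, which is in both lists, and Relb (-1.32 ± 0.23, adjusted p = 0.0474). Icam1 had a difference of -2.38 ± 0.46, adjusted p = 0.0632 without a call. The list as a whole was mixed, with 11 genes above 0, up to 1.05, 12 below and a median of -0.02.

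STAT proteins bind palindromes of the form TTCNNNGAA, and the promoters of Socs3 and of Tgm1, a transglutaminase gene described further on, hold matches. They are shown because both genes lie among the largest falls. The sequences are from RefSeq (build GRCm38.p6), 5′ to 3′ in the direction of the gene, with the match in capitals. They lie at chr11:117969482-117969550 (minus strand, match starting 154 bases before the start of Socs3) and chr14:55713518-55713586 (minus strand, match starting 64 bases before the start of Tgm1). A further match in the window of Tgm1 starts 173 bases before the start.
Socs3: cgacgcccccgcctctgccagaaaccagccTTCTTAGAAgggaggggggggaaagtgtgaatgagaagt
Tgm1: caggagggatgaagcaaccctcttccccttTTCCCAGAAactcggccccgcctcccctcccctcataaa
Promoter windows of 300 bases, 250 before the gene start and 50 after it, were listed for 14452 of the tested genes, for 178 of the 239 rises and for 76 of the 106 falls. On either strand TTCNNNGAA was found in 8.57% of the 14452 windows, in 8 of the 76 falls (10.5%) and in 12 of the 178 rises (6.74%). It was found in 8.3% of all 32851 windows of the table. The narrower form TTCCNGGAA, which is contained in the first, was in 1 fall and 1 rise. A match in a window is a description of its letters.

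All 16 measured naive ESC markers had a difference below 0, and 7 of them fell (median -1.68). Tfcp2l1, a transcription factor that STAT3 acts through, read 4386 and 5672 in ESC and 820.2 and 465 in EpiSC-like cells (-2.98 ± 0.32, adjusted p = 0.0200). Esrrb, an orphan nuclear receptor, read 4071 and 5447 in ESC and 1360.00 and 887 in EpiSC-like cells (-2.08 ± 0.33, adjusted p = 0.0386). Klf5 fell by 2.63, Tcl1, a coactivator of AKT, by 2.65 and the F-box gene Fbxo15 by 1.70. The median was -1.24 in the replicate 1 arrays and -2.10 in the replicate 2 arrays. Tbx3 (-2.19), Zfp42 (-1.40) and Nanog (-1.07) were not called. The list was drawn up with earlier results of these arrays known and is no independent evidence of its direction.

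Retinoic acid signals through nuclear receptors. The list of its metabolism, receptors and targets had 4 rises and 0 falls among 21 genes (19.05%, against 1.31% over all genes, with a median of 0.20). Dhrs3, a retinaldehyde reductase that retinoic acid induces, read 21.04 and 14.3 in ESC and 278 and 304 in EpiSC-like cells, a rise of 3.20 ± 0.27, adjusted p = 0.0164. Stra8, named for its stimulation by retinoic acid and needed for meiosis, read 237 and 226 in ESC and 1791 and 2579 in EpiSC-like cells, a rise of 3.13 ± 0.27, adjusted p = 0.0164. Rarb, a retinoic acid receptor that is itself a direct target, read 17.1 and 20.1 in ESC and 109 and 136 in EpiSC-like cells (2.0 ± 0.24, adjusted p = 0.0229), and Nrip1, a nuclear receptor corepressor, 280.4 and 238 in ESC and 723 and 724 in EpiSC-like cells (1.43 ± 0.24, adjusted p = 0.0474). In each of the 4 the EpiSC-like arrays were close to each other and clear of ESC. Other known targets were not called. Crabp2, a retinoic acid binding protein, read 223 and 111 in ESC and 251 and 818 in EpiSC-like cells (1.44 ± 0.67, adjusted p = 0.367), and the difference was above 0 in both array sets (0.16 and 2.72). Cyp26a1, which degrades retinoic acid, read 59.9 and 5.57 in ESC and 22.3 and 105 in EpiSC-like cells. Cyp26a1 differed by -0.99 and 2.49 in the 2 array sets, so that its sign turned between them. The enzymes that make retinoic acid, Aldh1a1, Aldh1a2 and Aldh1a3, were not called either.

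The promoter of Rarb is shown because it holds the response element of this receptor family, a direct repeat called DR5 after the number of bases between its repeated units. It lies at chr14:16575483-16575559 (RefSeq, GRCm38.p6, minus strand), and the match in capitals starts 53 bases before the gene start.
Rarb: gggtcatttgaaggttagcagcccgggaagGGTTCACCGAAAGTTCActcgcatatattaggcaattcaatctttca
A DR5 repeat was found on either strand in 11 of the 14452 windows (0.0761%; 0.0974% of all 32851) and among the called genes only in that of Rarb. The related DR2 repeat was in 14 windows of tested genes and in none of a called gene.

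Hox genes and their TALE cofactors had 6 rises and 0 falls among 46 measured genes (13.04%, against 1.31% over all genes, with a median of 0.23). The Hox genes among the rises all lie in the Hoxb cluster. Hoxb1, which patterns the hindbrain, read 11.9 and 1.79 in ESC and 509.9 and 1544 in EpiSC-like cells, the largest difference of all genes at 5.35 ± 0.53, adjusted p = 0.0164. Its higher EpiSC-like value came from replicate 2, and both lay far above ESC. Hoxb2 read 30.7 and 13.9 in ESC and 599 and 1082 in EpiSC-like cells (4.46 ± 0.47, adjusted p = 0.0200) and Hoxb5 4.45 and 4.07 in ESC and 88.8 and 119 in EpiSC-like cells (2.55 ± 0.43, adjusted p = 0.0454). Hoxb3, which lies between them in the cluster, read 12.3 and 16.7 in ESC and 253 and 308 in EpiSC-like cells (3.28 ± 0.78, adjusted p = 0.102). It was not called, and its day 7 values of 146 and 1025 enter the spread. Of the cofactors that bind DNA together with Hox proteins, Meis2 read 129 and 108 in ESC and 1248 and 1961 in EpiSC-like cells (3.56 ± 0.31, adjusted p = 0.0164), Pbx3 382 and 182 in ESC and 1643 and 2232 in EpiSC-like cells (2.78 ± 0.37, adjusted p = 0.0281) and Pknox2 4.87 and 20.6 in ESC and 182 and 243 in EpiSC-like cells (3.03 ± 0.38, adjusted p = 0.0243). On the 2 day 7 arrays Hoxb1 read 54.5 and 75.6, whereas Meis2 read 1742 and 2384.

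Wnt genes rose at several steps of the pathway. Among 34 ligands and receptors 4 rose and 1 fell (median 0.29), and among 32 inhibitors and effectors 3 rose (median 0.37). Over all genes 1.31% rose and 0.583% fell. Wnt8a, a ligand of the posterior epiblast, read 57.3 and 52.9 in ESC and 575 and 1392 in EpiSC-like cells (3.68 ± 0.44, adjusted p = 0.0227), and the higher of the EpiSC-like values came from replicate 2. The receptor genes Fzd2 (2.89 ± 0.38, adjusted p = 0.0272) and Fzd1 (1.35 ± 0.23, adjusted p = 0.0470) and the coreceptor gene Ror1 (2.10 ± 0.25, adjusted p = 0.0227) rose, whereas the receptor gene Fzd5 fell by 1.46. Lef1, a transcription factor that acts with beta-catenin, read 231 and 63.95 in ESC and 2074 and 1864 in EpiSC-like cells (3.82 ± 0.57, adjusted p = 0.0352). Sp8, a zinc finger factor of limb and brain, rose by 2.77 ± 0.25, adjusted p = 0.0164 and Sfrp2, a secreted Wnt antagonist, by 2.47 ± 0.29, adjusted p = 0.0227. Wls, which carries Wnt proteins to the cell surface, lay outside the lists, was picked after its value was seen and rose by 1.50 ± 0.26, adjusted p = 0.0474. The LEF/TCF motif CTTTGAT was in 3.46% of the 14452 windows, in 6 rises (3.37%) and in 4 falls (5.26%).

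FGF ligands and receptors had 2 rises among 29 genes (median 0.10), Fgf5 and Fgf15, a fibroblast growth factor of the early neural tube, which read 123 and 80.6 in ESC and 525 and 1131 in EpiSC-like cells (2.77 ± 0.45, adjusted p = 0.0436). Fgf8, the ligand of the posterior epiblast and mid-hindbrain, read 25.6 and 5.82 in ESC and 160.1 and 751 in EpiSC-like cells (3.61 ± 0.76, adjusted p = 0.0755) and was not called. Among 29 feedback inhibitors of ERK and Ets factors, genes that FGF signals induce, limma called 0 (7 at an unadjusted p under 0.05), and Spry4 (-2.13), Etv4 (-1.64) and Dusp5 (1.90) pointed in different directions. Of the Nodal and TGF-beta list 1 of 32 genes rose (3.125%, against 1.31% over all genes). It was Fst, which encodes follistatin, an antagonist of activin, and it read 93.8 and 64.01 in ESC and 562 and 921 in EpiSC-like cells (2.97 ± 0.39, adjusted p = 0.0272). Of the BMP list 1 of 28 genes fell, Bmp4, a ligand that keeps ESC from neural fates, which read 3411 and 7495 in ESC and 802 and 893 in EpiSC-like cells (-2.56 ± 0.40, adjusted p = 0.0380). Notch genes had 2 rises in 26, Hes6 (3.34 ± 0.25, adjusted p = 0.0140), a helix-loop-helix factor of neurogenesis, and the ubiquitin ligase gene Dtx4 (2.10 ± 0.24, adjusted p = 0.0227). Hedgehog genes had 2 rises in 14, the coreceptor gene Gas1 (2.13 ± 0.33, adjusted p = 0.0380) and the transcription factor gene Gli3 (1.93 ± 0.26, adjusted p = 0.0280). Among secreted factors of other families Ndnf, a neurotrophic factor, read 40.3 and 29.5 in ESC and 975 and 1254 in EpiSC-like cells (4.47 ± 0.27, adjusted p = 0.0114). The chemokine gene Cxcl12 rose by 3.28 ± 0.32, adjusted p = 0.0164, and the EGF family ligand Hbegf and endothelin (Edn1) fell by 1.97 and 1.44.

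Transcription factors of early neural tissue were among the largest rises. Sox1, the earliest factor restricted to neural progenitors, read 11.7 and 5.70 in ESC and 347 and 557 in EpiSC-like cells (4.22 ± 0.33, adjusted p = 0.0160). Its relatives Sox3 (2.69 ± 0.29, adjusted p = 0.0200) and Sox11 (2.56 ± 0.43, adjusted p = 0.0454) rose too, which makes 3 of 20 Sox genes (15.0%; median 0.10). In a list of developmental factors of the Pax, Lhx, Irx, Otx, Zic and related families, 3 of 56 rose (5.36%, against 1.31% over all genes). They were Irx3, which read 52.05 and 43.6 in ESC and 503 and 568 in EpiSC-like cells (3.11 ± 0.22, adjusted p = 0.0140), Irx5 (2.14 ± 0.24, adjusted p = 0.0203) and Gbx2, a factor of the anterior hindbrain that ESC also express (1.83 ± 0.32, adjusted p = 0.0493). Fabp7, a fatty acid binding protein of radial glia, read 25.9 and 8.49 in ESC and 702 and 797 in EpiSC-like cells (4.58 ± 0.44, adjusted p = 0.0164), and Prom1, a membrane protein of neural stem cells, 376 and 336 in ESC and 3163 and 3465 in EpiSC-like cells (3.16 ± 0.24, adjusted p = 0.0140). Wt1, a zinc finger factor known from kidney and gonad, read 69.2 and 2.78 in ESC and 995 and 979 in EpiSC-like cells (4.65 ± 0.69, adjusted p = 0.0352). Sall2 and Sall3 rose by 3.56 and 2.49, which is 2 of 4 measured Sall genes, and Sall4 (-0.16) was not called, a family picked after its values were seen. In the list of neurogenic helix-loop-helix factors limma called 0 of 22 genes (7 at an unadjusted p under 0.05), and Olig3 had the largest difference (2.68 ± 0.48, adjusted p = 0.0521). Mature neuron markers had 0 rises and 1 fall in 13, Stmn2, a tubulin-binding protein that read 8317 and 13364 in ESC and 1472 and 1116 in EpiSC-like cells (-3.02 ± 0.37, adjusted p = 0.0241), and ESC already held a high signal of it.

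The octamer ATGCAAAT, which POU factors such as Oct4 and Pou3f1 bind, was in 11 of the 178 windows of rises (6.18%), in 2 of the 76 windows of falls (2.63%) and in 243 of the 14452 (1.68%; 1.74% of all 32851), counted on both strands. The 11 genes are Gadd45g, Gm16551, Nmi, Pcdh8, Phc2, Pim2, Sesn3, Sfrp2, Sh3gl3, Sox1 and Stox2. In 4 of them, as was seen after the search, the match starts between 38 and 47 bases before the gene start, and those of Sfrp2, Pcdh8, Sh3gl3 and Stox2 are shown for this shared position, with Pim2 for its size of change. They are from RefSeq (GRCm38.p6) at chr3:83766244-83766311 (plus strand), chr14:79771322-79771389 (minus), chr7:82174728-82174795 (plus), chr8:47352351-47352418 (minus) and chrX:7878153-7878220 (plus), with the octamer or its reverse complement in capitals.
Sfrp2: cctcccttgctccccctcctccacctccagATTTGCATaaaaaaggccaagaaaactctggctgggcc
Pcdh8: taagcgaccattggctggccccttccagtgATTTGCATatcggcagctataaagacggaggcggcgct
Sh3gl3: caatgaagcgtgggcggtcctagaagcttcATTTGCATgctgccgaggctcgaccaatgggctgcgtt
Stox2: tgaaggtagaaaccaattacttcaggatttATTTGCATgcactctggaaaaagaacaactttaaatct
Pim2: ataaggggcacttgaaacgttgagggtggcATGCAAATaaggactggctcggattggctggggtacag
The window of Pim2 holds a further match that starts 202 bases before the gene start. The motif of Klf factors, GGGTGTG, was in 10.1% of the rises, 14.5% of the falls and 10.2% of the tested genes.

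Some genes that build or modify the sulfated sugar chains of the cell surface rose, as did some adhesion and guidance genes. In the list of heparan and chondroitin sulfate genes 6 of 44 rose and 0 fell (13.6%, against 1.31% over all genes, with a median of 0.36). Chst15, which adds sulfate to chondroitin, read 65.7 and 6.99 in ESC and 511 and 669 in EpiSC-like cells (3.79 ± 0.63, adjusted p = 0.0454), and Chst1 and Chst11, further sulfotransferases, rose by 2.44 and 1.46. Sulf1, which removes sulfate from heparan sulfate outside the cell, read 556 and 363 in ESC and 2008 and 2008 in EpiSC-like cells (2.12 ± 0.31, adjusted p = 0.0352), and Hs6st2, which adds it, read 349.6 and 217 in ESC and 892 and 959.9 in EpiSC-like cells (1.69 ± 0.29, adjusted p = 0.0471). The core protein gene Gpc6 rose by 2.19. Has2, a hyaluronan synthase of the same list, had a difference of 2.69 ± 0.52, adjusted p = 0.0607 and was not called. Of 69 axon guidance genes 4 rose and 1 fell (median 0.27). Efnb2, an ephrin, read 275 and 124 in ESC and 2295 and 1872 in EpiSC-like cells (3.37 ± 0.37, adjusted p = 0.0200), Epha7 and Efna5 rose by 2.31 and 2.15 and Sema4c by 2.31, while Nrp2, a semaphorin receptor that fell, read 2078 and 2504 in ESC and 435 and 324 in EpiSC-like cells (-2.55 ± 0.27, adjusted p = 0.0200). Of 64 cadherins 4 rose, Pcdh8 (2.92 ± 0.34, adjusted p = 0.0227), Pcdh18 (2.27 ± 0.27, adjusted p = 0.0227), Cdh10 (1.87 ± 0.28, adjusted p = 0.0352) and Cdh11 (1.34 ± 0.23, adjusted p = 0.0492). The integrin genes Itgb8 and Itga4 rose by 2.05 and 1.51. Prtg, Igdcc3 and Igdcc4, which encode related immunoglobulin-domain receptors of the early embryo, rose by 3.35, 2.48 and 3.15, and their relative Dcc (-0.52) was not called, so that 3 of 5 measured genes of this kind rose. This family was picked after its values were seen.

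Of 25 basement membrane genes limma called 0 (4 at an unadjusted p under 0.05; median -0.28), over a wide range. Lama1, the laminin chain of the embryonic basement membrane, read 861 and 1365 in ESC and 173 and 80.00 in EpiSC-like cells (-3.03 ± 0.76, adjusted p = 0.119), and its day 7 values of 453 and 2416 enter the spread. Nid1 had a difference of -2.13. Contractile genes had 1 rise in 34 (2.94%, against 1.31% over all genes, with a median of 0.18). It was Tagln, a smooth muscle actin-binding protein that read 75.2 and 28.6 in ESC and 327 and 835 in EpiSC-like cells (3.08 ± 0.54, adjusted p = 0.0492). Others of the list stood higher on both sets without a call, among them Myl9 (3.41 ± 0.77, adjusted p = 0.0906, within sets 1.56 and 5.26) and Cnn1 (2.35 ± 0.49, adjusted p = 0.0751). The list as a whole was mixed, with 20 genes above 0 and 14 below, down to -1.16. Its summed signal was 80989 and 88683 in ESC and 73207 and 84220 in EpiSC-like cells.

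**Figure D3:**
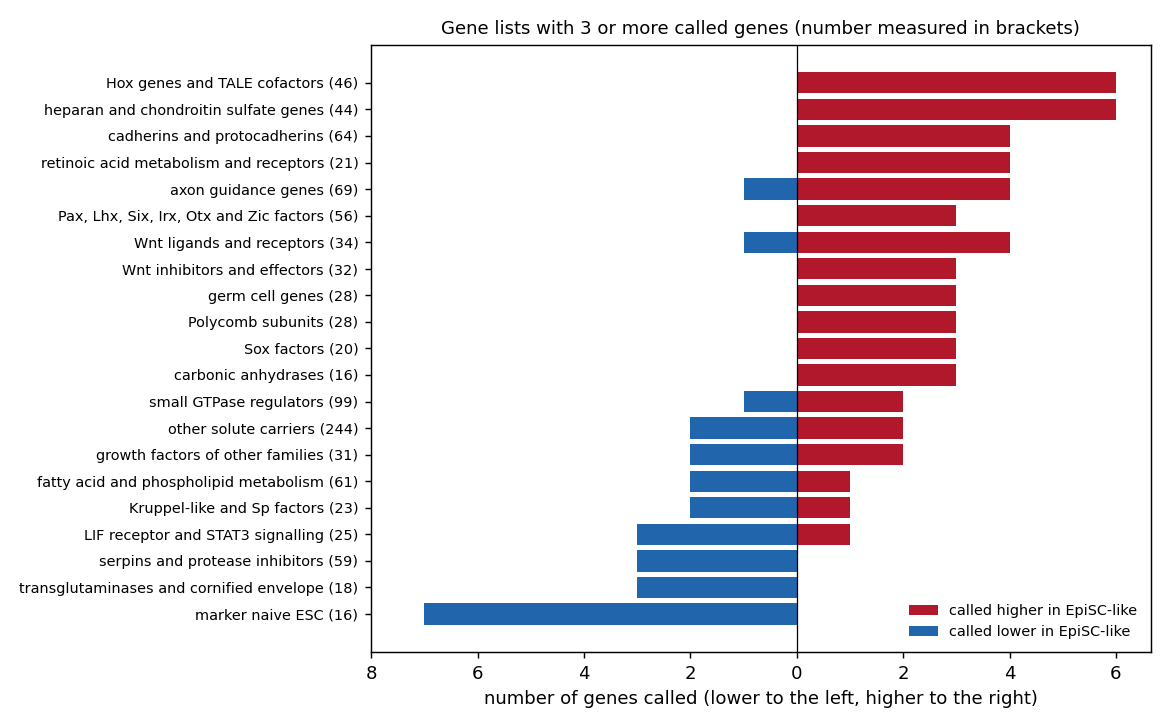
Number of genes called higher (red, to the right) or lower (blue, to the left) in EpiSC-like cells for the 21 lists with 3 or more called genes, with the number measured in brackets. The list of Hox genes and TALE cofactors and that of heparan and chondroitin sulfate genes have 6 rises each and 0 falls. The naive ESC markers have 7 falls and 0 rises.

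Of 59 serpins and protease inhibitors 3 fell and 0 rose (5.08%, against 0.583% lower over all genes, with a median of -0.08). Spink1, a trypsin inhibitor, read 2021 and 2129 in ESC and 83.7 and 51.5 in EpiSC-like cells, the largest fall of all genes at -4.67 ± 0.61, adjusted p = 0.0272. Serpinb6c read 595 and 612 in ESC and 72.9 and 20.6 in EpiSC-like cells (-3.44 ± 0.53, adjusted p = 0.0380) and Serpinb1a, an elastase inhibitor, 181 and 122 in ESC and 2.20 and 3.32 in EpiSC-like cells (-3.13 ± 0.28, adjusted p = 0.0164). Both Serpinb1a values in EpiSC-like cells lay near 0. Of the 18 measured Serpinb genes, a family picked after its values were seen, these were the only 2 called. Serpinb1b had a difference of -2.33 ± 0.41, adjusted p = 0.0503. In a list of 18 transglutaminases, genes of the cornified envelope and some Ly6 family genes, 3 fell (16.7%, median -0.35). Only Tgm1 among these falls is a transglutaminase, and the others are Ly6 family genes. Tgm1, the transglutaminase that cross-links proteins of the skin barrier, read 891 and 768 in ESC and 29.3 and 42.1 in EpiSC-like cells (-4.04 ± 0.25, adjusted p = 0.0114), and the neighbouring Ly6 family genes Ly6g6e and Ly6g6d read 925 and 1252 in ESC and 99.1 and 105 in EpiSC-like cells (-3.21 ± 0.29, adjusted p = 0.0164) and 166 and 169 in ESC and 34.2 and 7.74 in EpiSC-like cells (-2.41 ± 0.37, adjusted p = 0.0369). The cornified envelope genes proper, Ivl, Lor, Sprr1a and Evpl, were not called. Gjb5, a connexin, read 369 and 479 in ESC and 46.7 and 27.1 in EpiSC-like cells (-3.07 ± 0.29, adjusted p = 0.0164) and was the only call in 27 desmosome and gap junction genes, and Jam2, a junctional adhesion molecule, read 3778 and 4095 in ESC and 533 and 348 in EpiSC-like cells (-3.14 ± 0.31, adjusted p = 0.0164), while Cldn2, a claudin, rose by 2.21 ± 0.23, adjusted p = 0.0176.

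Other large falls came mostly singly from genes of different kinds. Lmna, which encodes lamin A and C, read 616 and 706 in ESC and 87.3 and 47.2 in EpiSC-like cells (-3.06 ± 0.30, adjusted p = 0.0164). S100a6, a calcium-binding protein, read 2719 and 1899 in ESC and 229.9 and 277 in EpiSC-like cells (-3.09 ± 0.28, adjusted p = 0.0164) and was the only call among 12 S100a genes, a family picked after its values were seen. Ahnak, a giant scaffold protein, read 1177 and 1289 in ESC and 219.8 and 104 in EpiSC-like cells (-2.89 ± 0.35, adjusted p = 0.0227), and Parvb, an actin-binding partner of integrins, 1462 and 1771 in ESC and 285 and 166 in EpiSC-like cells (-2.80 ± 0.33, adjusted p = 0.0227). Pcolce, an enhancer of procollagen processing, fell by 2.79, as did its relative Pcolce2, by 1.36, a pair picked after its values were seen. Pmel, a melanosome protein, read 1158 and 1545 in ESC and 126 and 63.8 in EpiSC-like cells (-3.67 ± 0.37, adjusted p = 0.0168), and Mitf, a transcription factor that drives it in pigment cells, fell by 1.69 ± 0.26, adjusted p = 0.0380; Mitf was picked after its value was seen. Cdyl2, a chromodomain protein, Irak3, a brake on Toll-like receptor signalling, and Slc1a1, a glutamate transporter, fell by 2.81, 2.82 and 2.66. Khdc3, an oocyte and early embryo protein, read 2253 and 1129.6 in ESC and 291 and 213 in EpiSC-like cells (-2.60 ± 0.37, adjusted p = 0.0327).

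Carbonic anhydrases, which interconvert carbon dioxide and bicarbonate, had 3 rises in 16 genes (18.8%, against 1.31% over all genes, with a median of 0.08). Car3 read 248 and 77.7 in ESC and 2142 and 3329.6 in EpiSC-like cells (4.10 ± 0.52, adjusted p = 0.0252), Car4 129.8 and 149 in ESC and 650.3 and 1952 in EpiSC-like cells (2.88 ± 0.48, adjusted p = 0.0459) and Car2 2505 and 2527 in ESC and 9250.1 and 17665 in EpiSC-like cells (2.34 ± 0.35, adjusted p = 0.0352). The ESC arrays of Car2 were nearly equal, and its higher EpiSC-like value came from replicate 2. Car14 had a difference of 2.09 ± 0.60, adjusted p = 0.156 without a call, and the others lay between -0.99 and 0.67.

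Lists of core metabolism and growth held too few genes for a count of 0 to stand apart from the 1.90% called over all genes, so their medians are given. Over all genes 2904 of 18193 had an unadjusted p under 0.05. Of 80 genes of the respiratory chain and ATP synthase (median -0.07) and of 45 ribosomal proteins (median -0.04), limma called 0, with 0 in either list at an unadjusted p under 0.05. It also called 0 of 31 genes of mitosis and replication (2 at an unadjusted p under 0.05; median -0.15), 0 of 34 cyclins, kinases and inhibitors (8; median 0.20) and 0 of 23 genes of glucose uptake and glycolysis (6; median 0.23). Ccnd2, a D-type cyclin, had a difference of 2.80 ± 0.53, adjusted p = 0.0596 without a call. Cholesterol synthesis had the highest median of the metabolic lists, 0.65, with 17 of 21 genes above 0, of which limma called 0 and passed 10 of the list at an unadjusted p under 0.05. Hmgcs1, an early enzyme of the pathway, read 5486 and 3693 in ESC and 8867 and 12442 in EpiSC-like cells (1.22 ± 0.30, adjusted p = 0.111), and Hsd17b7 had a difference of 1.18. The shift was uneven between array sets, with a median of 0.18 in replicate 1 and 1.01 in replicate 2.

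Genes of the ATF4 stress response, which cells induce when amino acids are short or the endoplasmic reticulum is under load, stood lower, with 14 of 18 genes below 0, a median of -0.70 and 2 falls. Ddit3, the CHOP transcription factor, read 808 and 1093 in ESC and 227 and 278 in EpiSC-like cells (-1.84 ± 0.28, adjusted p = 0.0357), and Cth, which makes cysteine, read 3959.8 and 4676 in ESC and 1500.3 and 1279.8 in EpiSC-like cells (-1.62 ± 0.23, adjusted p = 0.0329). Nupr1 (-3.0 ± 0.67, adjusted p = 0.0880), Trib3 (-1.50 ± 0.31, adjusted p = 0.0724), Asns (-1.10) and Atf4 itself (-0.85) were not called. The median was -0.89 and -0.50 in the 2 array sets. The list of serine, glycine and one-carbon metabolism, which shares members with it, had 0 calls by limma in 19 genes (8 at an unadjusted p under 0.05) and a median of -0.48, with Psat1 at -0.91 and Shmt2 at -0.89. A separate list of the unfolded protein response and chaperones of the endoplasmic reticulum leaned the other way. There 13 of 18 genes lay above 0 with a median of 0.20, and limma called 0. In the hypoxia list 17 of 22 genes lay above 0 with a median of 0.39, and limma called 0 (9 at an unadjusted p under 0.05, against 2904 of 18193 over all genes).

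**Figure D4:**
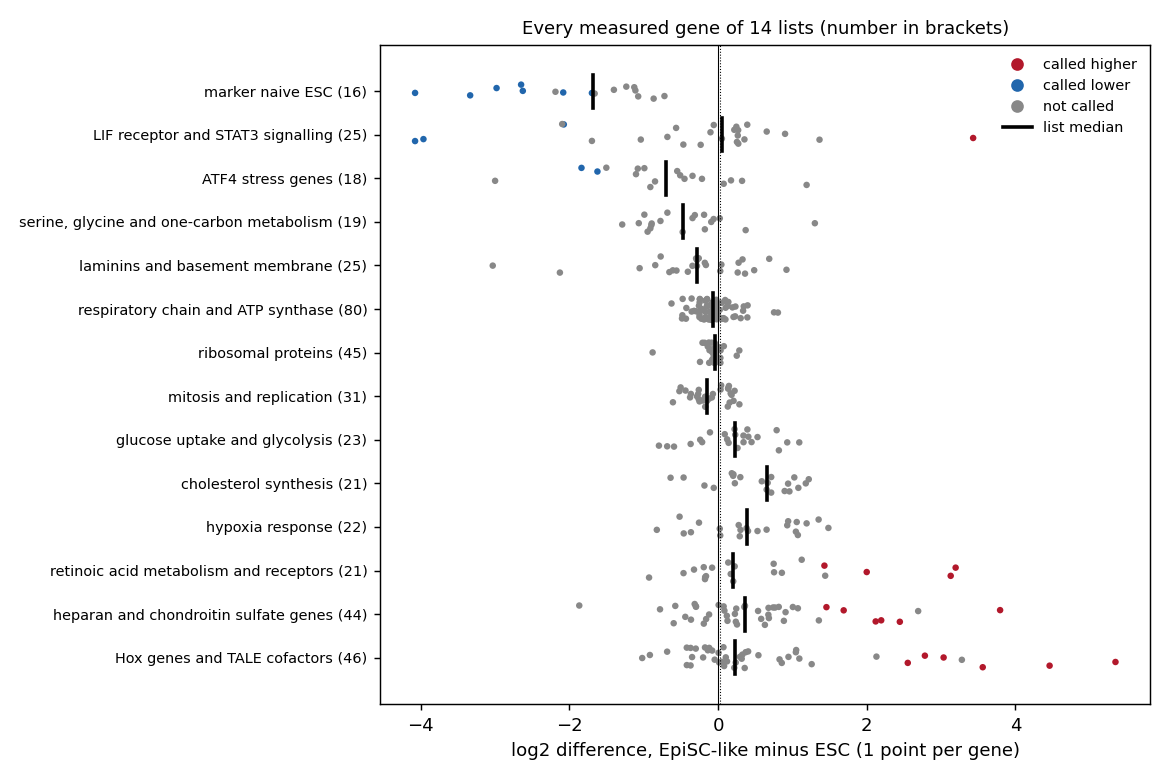
Log2 difference between EpiSC-like cells and ESC for every measured gene of 14 lists, with 1 point per gene, red for called higher, blue for called lower and grey for not called. Black bars mark list medians, which run from -1.68 for the naive ESC markers to 0.65 for cholesterol synthesis, and the dotted line marks the median of all genes at 0.03.

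Chromatin genes changed in part. Polycomb proteins silence developmental genes, and 3 of 28 of their genes rose (10.7%, against 1.31% over all genes, with a median of 0.08). All 3 are parts of the ubiquitin ligase complex PRC1. Bmi1 read 230.3 and 211 in ESC and 890.2 and 724 in EpiSC-like cells (1.79 ± 0.23, adjusted p = 0.0270), Phc2 736 and 549.96 in ESC and 1638 and 2027 in EpiSC-like cells (1.49 ± 0.26, adjusted p = 0.0474) and Yaf2 314 and 294 in ESC and 956 and 1517 in EpiSC-like cells (1.93 ± 0.28, adjusted p = 0.0346). Of 37 genes of BAF and other remodelling complexes 2 rose, Bcl11a (2.65 ± 0.30, adjusted p = 0.0213) and the ATPase gene Smarca2 (2.31 ± 0.40, adjusted p = 0.0489). In the list of DNA methylation and demethylation 1 of 19 rose, Gadd45g (1.99 ± 0.30, adjusted p = 0.0357). The methyltransferase genes Dnmt3a and Dnmt3b were not called. Dnmt3a read 1914 and 583 in ESC and 6728 and 4725 in EpiSC-like cells (2.40 ± 0.59, adjusted p = 0.111). Dnmt3b read 10402 and 7148 in ESC and 17818 and 22681 in EpiSC-like cells (1.22 ± 0.32, adjusted p = 0.128). Their cofactor Dnmt3l had a difference of -1.35. Imprinted genes had 1 fall in 25, Phlda2 (-1.58 ± 0.23, adjusted p = 0.0343), while Nnat (2.35 ± 0.42, adjusted p = 0.0521) and Ndn (2.0 ± 0.44, adjusted p = 0.0854) stood higher without a call.

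Germ cell genes had 3 rises and 0 falls in 28 (10.7%, against 1.31% over all genes, with a median of -0.11). Besides Stra8 they were Sohlh2, a transcription factor of early germ cells, which read 364 and 366 in ESC and 1299 and 1608 in EpiSC-like cells (1.94 ± 0.23, adjusted p = 0.0227), and Dazl, an RNA-binding protein of germ cells, which read 447 and 389 in ESC and 1462 and 1052 in EpiSC-like cells (1.54 ± 0.27, adjusted p = 0.0492). A group of genes known as inducible by interferon rose with Psmb8, the immunoproteasome subunit that read 11.1 and 20.6 in ESC and 285 and 471 in EpiSC-like cells (3.60 ± 0.39, adjusted p = 0.0200) and was the only call among 30 genes of the interferon and antigen presentation list (median 0.06). They were picked after their values were seen. The guanylate-binding protein genes Gbp2, Gbp2b and Gbp3 rose by 2.93, 2.63 and 2.62, which is 3 of 6 measured, and Irgm1, 1 of 5 immunity-related GTPases, by 2.11. Gbp7 (2.03) and Igtp (2.35) were not called. Rtp4 read 4.03 and 1.35 in ESC and 108 and 109 in EpiSC-like cells (2.74 ± 0.22, adjusted p = 0.0160) and Nmi rose by 1.54 ± 0.24, adjusted p = 0.0380.

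Lists of markers were also drawn up for other cells that a sort could hold. They are read against the 1.90% called over all genes and the 2904 of 18193 with an unadjusted p under 0.05. Of 14 genes of the primitive streak and mesendoderm, 17 of primitive and visceral endoderm and 13 of trophoblast, limma called 0 (2, 3 and 4 at an unadjusted p under 0.05), with medians of 0.06, -0.28 and -0.12, and Eomes of the streak differed by 1.0. The summed signal of the streak list was 696 and 782 in ESC and 1101 and 882 in EpiSC-like cells. Each of the other lists had 1 call. Among 11 neural crest markers Snai2 rose (9.09% of the list; 1.70 ± 0.29, adjusted p = 0.0481), and among 13 of fibroblasts and feeder cells Col1a2 rose (7.69%; 2.0 ± 0.34, adjusted p = 0.0474). The summed signal of the fibroblast list was 1159 and 880.1 in ESC and 1593 and 1613 in EpiSC-like cells. Of 15 blood and endothelial markers Vwf fell (6.67%; -1.94 ± 0.30, adjusted p = 0.0369), from signals of 148 and 218. The part of these cell types in the results was not tested.

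Within each array set the 345 called genes kept their direction, as groups that do not overlap must, but not always their size. Hoxb1 differed by 4.24 and 6.45 in the replicate 1 and replicate 2 arrays, Wnt8a by 3.01 and 4.35, Klf4 by -2.64 and -4.03 and Pim2 by 2.86 and 4.0, larger in replicate 2 each time, as for 184 of the 239 rises and 79 of the 106 falls. Fgf5 (4.60 and 4.91), Ndnf (4.14 and 4.80), Tgm1 (-4.32 and -3.75) and Bcl3 (-3.75 and -4.18) were closer. A further 72 genes differed by at least 2 on the log2 scale without a call, 51 higher and 21 lower, Fgf8, Hoxb3, Nupr1 and Lama1 among them.

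**Figure D5:**
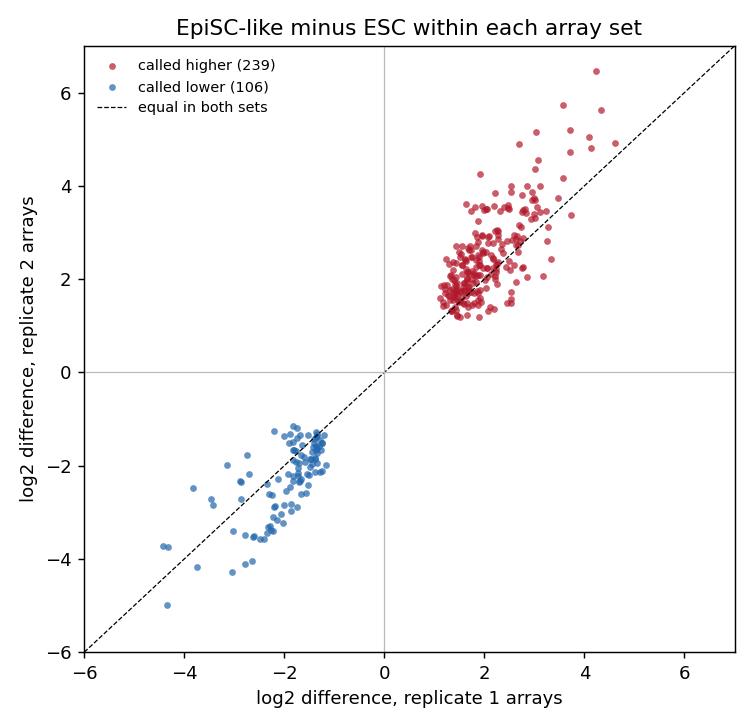
Log2 difference of EpiSC-like minus ESC in the replicate 2 arrays (vertical axis) against that in the replicate 1 arrays (horizontal axis) for the 345 called genes, red for higher and blue for lower. All points lie in the upper right or lower left quadrant, and 263 of them lie on the side of the dashed line of equality where replicate 2 differs more.

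Set against the day 7 Venus-positive cells, which were neither gated on CD31 nor dissociated in the same way, the EpiSC-like arrays differed at 7 of 18193 genes (0.0385%; limma adjusted p under 0.05), and 3 of these were among the 345. This comparison shares the EpiSC-like arrays with the first, so values are set side by side only. Gbx2 read 491 and 305 in ESC, 1173 and 1707 in EpiSC-like cells and 102 and 93.3 in day 7 cells. Tnfsf11, a ligand of the TNF family, read 115 and 86.4 in ESC, 509 and 387 in EpiSC-like cells and 48.8 and 41.1 in day 7 cells. Serpinb1a read 181 and 122 in ESC, 2.20 and 3.32 in EpiSC-like cells and 121 and 164 in day 7 cells. Gbx2 and Tnfsf11 had their highest signals on day 3 and Serpinb1a its lowest. Socs3 read 1024 and 1840.00 on day 7, between the other groups, and Stra8 838 and 986. Fabp7 read 666 and 1511 on day 7 and Meis2 1742 and 2384, overlapping or above their day 3 values.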

How the data were processed

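Members, gene lists and motifs were chosen with earlier results of these data known. The deposited values are linear intensity per probe set. Affymetrix Expression Console, version 1, is named in the submitters' processing notes, without the algorithm. Of 45101 probe sets, 64 controls were left out, and 34945 with 1 gene in the platform annotation gave 18193 genes, each by the probe set with the highest mean log2 value over 6 arrays. Fits used limma 3.58.1 (R 4.3.3) on log2(signal + 16) of all 6 arrays, with group means, no block and 3 residual degrees of freedom. Lists (86, with 3019 measured genes and 123 of the 345 calls; 113 of 1467 named entries matched no gene) were described by counts and medians. The fit was also run on simulated data of the same size, with independent noise and no array sets, which says nothing about the effect of those sets. Named were the markers, the 25 largest rises and falls, the 10 of each with the smallest adjusted p and up to 8 called genes per list. Alternatives were other pseudocounts (1, 64), filters, scalings, probe set means, limma-trend, the replicate block and leaving out each array. With 2 arrays a group the number of arrays limits the precision. ESC and EpiSC-like arrays of one number deviated together across genes (r = 0.28), the other group pairs less (0.08 and 0.10).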

Additional observations from a re-analysis of the deposited data

How the results depend on the processing

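Counts of called genes moved widely with the processing. All 345 genes kept their direction wherever they were fitted, which is no separate evidence for the calls. Groups that do not overlap cannot change sign when an array is left out or when the pseudocount or block changes. The 345 calls (239 higher, 106 lower) became 0 with a pseudocount of 1 (smallest limma adjusted p 0.0721; 2617 genes with unadjusted p under 0.05), and 672 (449 and 223) with 64. With the replicate block limma called 0 (smallest adjusted p 0.0506), and 0 also with the block on the 4 arrays alone (smallest adjusted p 0.111; 3502 at an unadjusted p under 0.05), a fit chosen after seeing the data. The labels do not say that the replicate numbers pair the samples. The 4 arrays alone gave 41 (29 and 12). Only genes at or above the 25th percentile gave 653 (444 and 209), those at or above the median 771 (479 and 292), and limma-trend 794 (511 and 283). Quantile normalization gave 263 (157 and 106). Median centring gave 332 (184 and 148) and moved the median difference of all genes from 0.03 to -0.13. Probe set means gave 269 (171 and 98). Leaving out 1 array gave 0 to 63 calls (0 to 54 higher, 0 to 12 lower).

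The 3 genes called against day 7 as well became 60 at the 25th percentile, 136 at the median, 87 with limma-trend, 82 with a pseudocount of 64, 5 with median centring and 0 with a pseudocount of 1, with quantile normalization or with the replicate block, and 0 without any 1 array. Of the genes named with values, Cyp26a1, which was not called, turned its sign without ESC replicate 2 (-0.15) and without EpiSC-like replicate 2 (-0.08), and ranged from -0.15 to 1.66 over the fits without 1 array. With 2 arrays a group, differences in dim genes are the least certain, and the pseudocount decides how far they count.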

Other observations

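Some of the called genes outside the lists belong to known pairs or complexes, and they were picked after their values were seen. Fras1 and Frem2, whose products form one extracellular complex of embryonic epithelia, rose by 1.80 and 1.84. The endocytic receptor genes Lrp2 and Lrp4 rose by 1.69 and 1.68, and the insulin receptor substrate genes Irs1 and Irs4 by 1.81 and 2.07. Ssbp2 and Ssbp3, which encode partners of LIM-domain complexes, rose by 1.71 and 1.69. Apela, a peptide ligand of the early embryo, read 1666 and 972 in ESC and 4918 and 4853 in EpiSC-like cells and Nkx1-2, a homeobox gene of the caudal epiblast, 21.02 and 19.95 in ESC and 101 and 145 in EpiSC-like cells, rises of 1.93 and 1.91. Myf5, known as a muscle determination gene, read 5.32 and 0.356 in ESC and 120.04 and 92.8 in EpiSC-like cells, a rise of 2.70.

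Further single falls were also picked after their values were seen. Nlrp5, which acts with Khdc3 in a maternal complex, read 34.2 and 40.9 in ESC and 3.86 and 6.01 in EpiSC-like cells, and the zona pellucida gene Zp3 read 558 and 387 in ESC and 108 and 153 in EpiSC-like cells. Their differences were -1.35 and -1.73. Runx1, a transcription factor of blood formation, had a difference of -1.67.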
